A study of Homo sapiens with 16 samples.

Results

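The genes described here are 43 human genes of DNA replication and nucleotide synthesis. They were taken by name from a list of replication licensing, replication fork and nucleotide synthesis genes, and all 43 listed genes had a translation ratio in every culture, out of 15864 genes that did so in the whole table. The translation ratio divides a gene's level among RNAs carried by translating ribosomes (ribosome-nascent chain complexes, RNC) by its level in total RNA. A ratio above 1 means that a transcript was better represented on translating ribosomes than in total RNA. A change in the ratio can come from either level, and neither level is used here on its own. The cells were H9, an established human embryonic stem cell line grown without feeder cells in mTeSR1 medium. The 4 groups compared, each with 2 cultures, were siOCT4 cells at 1% oxygen, siOCT4 cells at 20% oxygen, cells labelled NC (called control here) at 1% oxygen and NC cells at 20% oxygen. Ratios are given below per culture, with siRNA and oxygen in brackets. siOCT4 is an siRNA against OCT4, the pluripotency factor encoded by POU5F1, and the labels call 1% oxygen hypoxia and 20% oxygen normoxia. Each culture stands for an RNA library and the RNC library that shares its label. Whether cultures of a group were separate growths is not stated in the labels, so p-values measure only the spread between these samples. The extent of the OCT4 knockdown cannot be read from a ratio. Ratios in all 8 cultures were present for 14 of 14 pluripotency markers, but also for 5 of 8 fibroblast, 4 of 4 neural, 4 of 4 endoderm, 2 of 4 mesoderm and 2 of 5 trophectoderm markers, and a ratio gives no level by which these could be weighed.

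Replication starts from origins that are marked in the G1 phase by the origin recognition complex (ORC1 to ORC6). CDC6 and CDT1 load the ring-shaped helicase MCM2 to MCM7 onto them, and geminin (GMNN) binds CDT1 so that an origin is not loaded again in the same cycle. CDC45, the GINS complex and MCM10 turn the loaded ring into a moving helicase, RPA coats the single strands, DNA polymerase alpha with primase lays down primers, and polymerases delta and epsilon extend them while held by the clamp PCNA, which the RFC complex places on DNA. FEN1 and LIG1 trim and join the pieces of the lagging strand, and ribonucleotide reductase (RRM1 and RRM2), thymidylate synthase (TYMS) and thymidine kinase (TK1) supply the nucleotides. Embryonic stem cells have a short G1 phase and many cells in S phase, and many replication genes are transcribed under the control of E2F factors.

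The base composition of the transcripts is shown first, because the ratio followed it. Among the 43 genes the GC content of the transcript (GENCODE release 29, 1 transcript per gene) ran between 37.7% for ORC4 and 64.9% for CDT1. Stretches of 90 bases from the middle of the coding sequence of 3 AT-rich and 2 GC-rich members are printed 5′ to 3′, with G and C in capitals, in the order of their transcript GC content. They are coding bases 1024 to 1113 of ORC3 (transcript GC 39.3%, chromosome 6), 745 to 834 of POLE2 (41.7%, chromosome 14), 538 to 627 of RRM2 (42.6%, chromosome 2), 1615 to 1704 of POLD1 (64.8%, chromosome 19) and 775 to 864 of CDT1 (64.9%, chromosome 16).
ORC3: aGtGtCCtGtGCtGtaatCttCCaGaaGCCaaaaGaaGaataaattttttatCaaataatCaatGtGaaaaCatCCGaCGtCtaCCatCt
POLE2: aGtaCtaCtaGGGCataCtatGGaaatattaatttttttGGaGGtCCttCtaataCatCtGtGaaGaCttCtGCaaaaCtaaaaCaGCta
RRM2: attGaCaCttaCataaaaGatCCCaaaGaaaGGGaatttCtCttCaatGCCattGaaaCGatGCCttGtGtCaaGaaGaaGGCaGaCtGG
POLD1: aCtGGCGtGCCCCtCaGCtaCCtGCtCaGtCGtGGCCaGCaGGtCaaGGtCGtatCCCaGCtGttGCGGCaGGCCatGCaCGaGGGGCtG
CDT1: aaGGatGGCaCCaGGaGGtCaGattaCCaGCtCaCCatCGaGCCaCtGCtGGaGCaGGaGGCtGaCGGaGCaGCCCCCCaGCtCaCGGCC
The 5 stretches hold 34.4%, 33.3%, 40%, 65.6% and 64.4% G and C in that order. The whole coding sequences hold 40.1%, 40.7%, 48.8%, 65.0% and 68.3%. The stretches of ORC3, POLE2 and RRM2 are thus poorer in G and C than their coding sequences, and AT-rich refers here to the transcript.

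Another sequence feature that the list did not use is the E2F-type motif. The letters TTTCCCGC, TTTGGCGC, TTTCGCGC and TTTGCCGC were searched on both strands of the 250 bases before the transcription start (RefSeq, GRCh38.p14). Of the 38 members with an entry, 14 (36.8%) held at least 1 match, against 928 of 27305 genes (3.40%). The 27305 are all genes with an entry, not only those with a ratio here, and were not matched for promoter base composition. A gene with several entries counted if any of them matched. The difference between the shares was not tested. The 14 were ORC3, CDT1, GMNN, MCM3, MCM6, MCM7, GINS2, PCNA, RFC3, POLA1, POLA2, POLE, LIG1 and TYMS. MCM4, MCM5, GINS4, RPA2 and RPA3 were not searched. The 150 bases before the start of 3 of these genes are printed 5′ to 3′ in the direction of transcription, with the matches in capitals: GMNN (chr6:24775263-24775412, plus strand), PCNA (chr20:5126623-5126772, minus strand) and MCM6 (chr2:135876444-135876593, minus strand), where matches overlap.
GMNN: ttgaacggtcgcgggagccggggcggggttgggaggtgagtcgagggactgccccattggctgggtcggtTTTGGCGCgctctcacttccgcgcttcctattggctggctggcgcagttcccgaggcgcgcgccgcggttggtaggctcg
PCNA: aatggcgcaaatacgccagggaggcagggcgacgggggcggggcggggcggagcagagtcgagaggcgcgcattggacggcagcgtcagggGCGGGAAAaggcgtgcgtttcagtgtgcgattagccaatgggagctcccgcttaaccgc
MCM6: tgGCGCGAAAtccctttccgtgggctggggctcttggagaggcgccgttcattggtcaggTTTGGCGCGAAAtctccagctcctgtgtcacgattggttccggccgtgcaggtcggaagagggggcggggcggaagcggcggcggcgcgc
A match is a description of these letters and not a site of binding, and the ratios carry no measure of transcription.

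In control cells at 20% oxygen the 43 ratios spread widely, with the highest ratio 39.5 and 23.2 times the lowest in the 2 cultures. ORC3, POLE2 and GMNN led there with geometric means of 7.46, 7.03 and 5.70, and POLD1 was last at 0.251. ORC3 overlapped with POLE2, POLE2 with GMNN and GMNN with RFC3 below it, whereas POLD1 did not overlap with POLE above it. In siOCT4 cells at 1% oxygen the highest was 16.7 and 18.8 times the lowest, with RFC1 first (5.75) and POLD1 last (0.367) by geometric mean. RFC1 overlapped there with POLE2 below it, and POLD1 with TK1 above it. The other groups were flatter. In siOCT4 cells at 20% oxygen the highest ratio was 2.87 and 2.85 times the lowest, and in control cells at 1% oxygen it was 10.7 and 9.55 times the lowest. In control cells at 1% oxygen RRM2 (0.151), POLE2 (0.357) and GMNN (0.465) stood last; RRM2 and POLE2 overlapped with no neighbour in this order, whereas GMNN overlapped with MCM5 above it and RPA2, first at 1.41, with ORC6 below it. The RRM2 ratio was at percentiles 0.448 and 0.649 of all 15864 genes in control cells at 1% oxygen, and between percentiles 44.5 and 61.5 in the 6 other cultures.

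**Figure D1:**
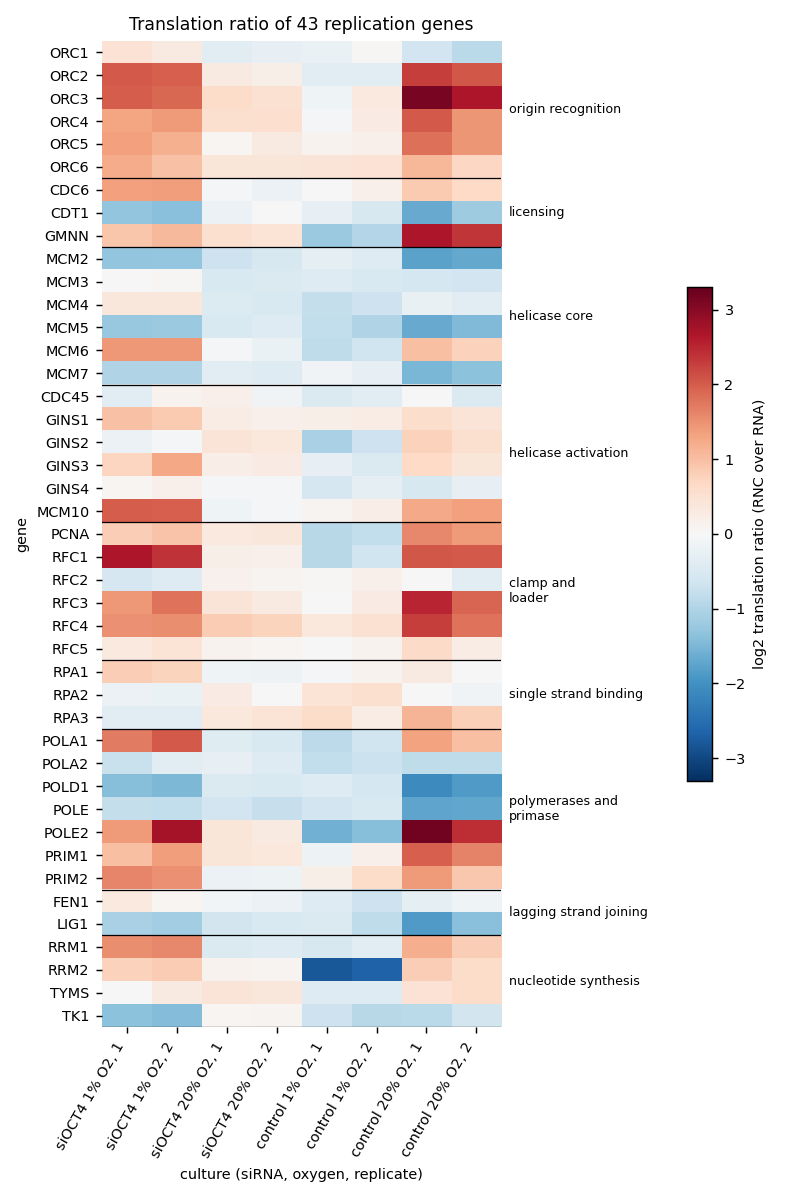
The log2 translation ratio of each of the 43 genes (rows, grouped by role) in each of the 8 cultures (columns), with red for ratios above 1 and blue for ratios below 1. The columns of siOCT4 cells at 1% oxygen and control cells at 20% oxygen hold both high and low ratios (0.357 to 6.70 and 0.232 to 9.17). The columns of siOCT4 cells at 20% oxygen are pale, and RRM2 is darkest blue in control cells at 1% oxygen (0.143 and 0.158), the lowest ratios of all.

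The ratio followed transcript GC content in some groups more than in others. Across the 43 genes, Spearman's rho between ratio and transcript GC content was -0.86 and -0.87 (siOCT4, 1%), -0.60 and -0.57 (siOCT4, 20%), -0.14 and -0.38 (control, 1%), and -0.90 and -0.89 (control, 20%). These are descriptions over genes of the same libraries. The 15 members with a transcript GC content under 45% had median ratios of 2.68 and 2.85, 1.18 and 1.14, 0.773 and 0.79, and 3.89 and 2.75 in these groups in the same order. The 14 members at 50% or more had 0.545 and 0.537, 0.781 and 0.742, 0.739 and 0.7, and 0.445 and 0.49. Over all 15259 genes with a known GC content, the GC trend held 64.3% and 66.3% of the variance of the log2 ratio (siOCT4, 1%), 14.4% and 9.31% (siOCT4, 20%), 0.0924% and 10% (control, 1%), and 71.8% and 65.2% (control, 20%). Every change below is therefore given as deposited and also after each culture's trend of log2 ratio on GC content was subtracted (GC corrected). The corrected values of each culture average 0 over these genes, so the correction also removes a shift shared by all genes. Corrected medians of all genes were -0.031 and -0.016 for siOCT4 against control at 20% and 1% oxygen. They were 0.014 and 0.031 for 1% against 20% oxygen in control and siOCT4 cells. Changes are log2 differences ± SE from limma with 2 cultures per group, and p-values are adjusted over all genes tested. Counts of members with a culture left out, or under another normalization, stand without the share of all genes in the same fit. A rise or loss of calls in such a count may be shared by all genes and is not a result about the members.

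In siOCT4 against control cells at 20% oxygen, 8 of the 43 members rose and 19 fell. The GC-rich CDT1, POLD1, MCM2 and LIG1 were among those that rose, and the AT-rich POLE2, ORC3 and GMNN among those that fell. Of all genes tested, 53.3% passed (19.2% higher, 34.1% lower), and the members' median change was -0.31 beside -0.086 for all genes. Leaving out siOCT4 replicate 1 at 20% cut the 8 higher calls to 4, and leaving out replicate 2 cut them to 3. The medians of members and all genes were -0.20 and -0.13 without control replicate 1 at 20% and -0.46 and -0.080 without control replicate 2. GC corrected, 5 members were higher and 3 lower, 14.7% of all genes passed (7.24% higher, 7.46% lower), and the members' median was 0.076, or -0.053 without control replicate 2 at 20%. Only ORC3, GMNN and MCM10 passed in the same direction both ways, all 3 lower, each losing its corrected call in at least 2 of the 8 fits that left a culture out, and 2 members passed in opposite directions. Quantile normalization gave 0 higher and 9 lower. The corrected count of 8 was 0 without either siOCT4 culture at 20% oxygen, 3 without either siOCT4 culture at 1%, 5 without either control culture at 1%, and 4 and 5 without control replicate 1 and 2 at 20%.

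In siOCT4 against control cells at 1% oxygen, 28 members were higher and 8 lower. The 8 lower calls were 1 without either siOCT4 culture at 1% oxygen and 2 without control replicate 1 at 1%, where 24 were higher in each case. Of all genes, 61.0% passed (41.1% higher, 19.9% lower), and the members' median was 0.75 beside 0.42 for all genes. GC corrected, 12 members were higher and 6 lower, 44.4% of all genes passed (21.7% higher, 22.7% lower), and the median was 0.15, or 0.062 without control replicate 1 at 1%. The 6 lower were 3 without siOCT4 replicate 1 at 1%. In the same direction both ways, 14 members passed. ORC2, GMNN, MCM4, MCM6, MCM10, PCNA, RFC1, POLA1, POLE2, FEN1, RRM1 and RRM2 were the 12 that rose, and RPA2 and RPA3, 2 subunits of the single strand binding complex, fell. Of the 14, the 9 that passed both ways with each culture left out were ORC2, GMNN, MCM6, MCM10, PCNA, RFC1, RPA2, POLA1 and RRM2. RRM1 lost its corrected call without siOCT4 replicate 2 at 1% (adjusted p 0.0522). Setting each culture's median to 0 moved the uncorrected split to 20 higher and 11 lower.

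In control cells, 1% against 20% oxygen gave 9 members higher and 23 lower. Of all genes, 60.2% passed (20.5% higher, 39.6% lower), with medians of -0.53 for the members and -0.31 for all genes. The distance between these medians rested on 1 culture: they were -0.43 and -0.38 without control replicate 1 at 20% oxygen, and -0.69 and -0.27 without control replicate 2. GC corrected, 9 were higher and 14 lower, 46.1% of all genes passed (23.1% in each direction), and the members' median was 0.032, between -0.13 and 0.12 with a culture left out. ORC2, ORC3, GMNN, GINS2, MCM10, PCNA, RFC1, RFC4, POLA1, POLE2, RRM2 and TYMS fell both ways, and ORC1, MCM2, MCM7, RPA2 and POLE rose both ways. Of these 17, 11 passed both ways with each culture left out, and ORC1, MCM10, RFC4, RPA2, POLA1 and POLE did not. RFC4 lost its corrected call without either siOCT4 culture at 1% (adjusted p 0.0541 and 0.0543), either control culture at 1% (0.0845 and 0.0813) or control replicate 1 at 20% (0.0568). The corrected count of 23 was 15 (5 higher, 10 lower) without control replicate 2 at 1% oxygen.

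In siOCT4 cells, 1% against 20% oxygen gave 25 members higher and 9 lower. Of all genes, 59.0% passed (37.4% higher, 21.6% lower), with medians of 0.68 for the members and 0.27 for all genes, or 0.48 and 0.29 without siOCT4 replicate 2 at 1%. GC corrected, 8 were higher and 12 lower, 37.0% of all genes passed (18.9% higher, 18.1% lower), and the median was -0.013, between -0.10 and 0.011 with a culture left out. CDC6, MCM3, MCM6, MCM10, RFC1, POLA1 and RRM1 rose both ways, GINS2, RPA3 and TK1 fell both ways, and 6 members passed in opposite directions. Of the 10 that passed in the same direction, only MCM10, RFC1, POLA1 and RRM1 passed both ways with each culture left out. RPA3 lost its uncorrected call without any of the 4 siOCT4 cultures (adjusted p 0.0505 to 0.0765). Setting each culture's median to 0 gave 15 higher and 12 lower, and a correction for GC content and length 7 and 6. The uncorrected count of 34 became 19 and 18 when replicate 1 and 2 of siOCT4 at 1% oxygen were left out and 17 and 15 when those at 20% were, with the 9 lower calls at 2, 2, 2 and 1, and the corrected count of 20 was 11, 12, 9 and 7 without the same cultures. The 4 comparisons share cultures in pairs; the comparison of siOCT4 with control cells at 1% oxygen and that of 1% with 20% oxygen in control cells, for example, both use the control cultures at 1%.

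**Figure D2:**
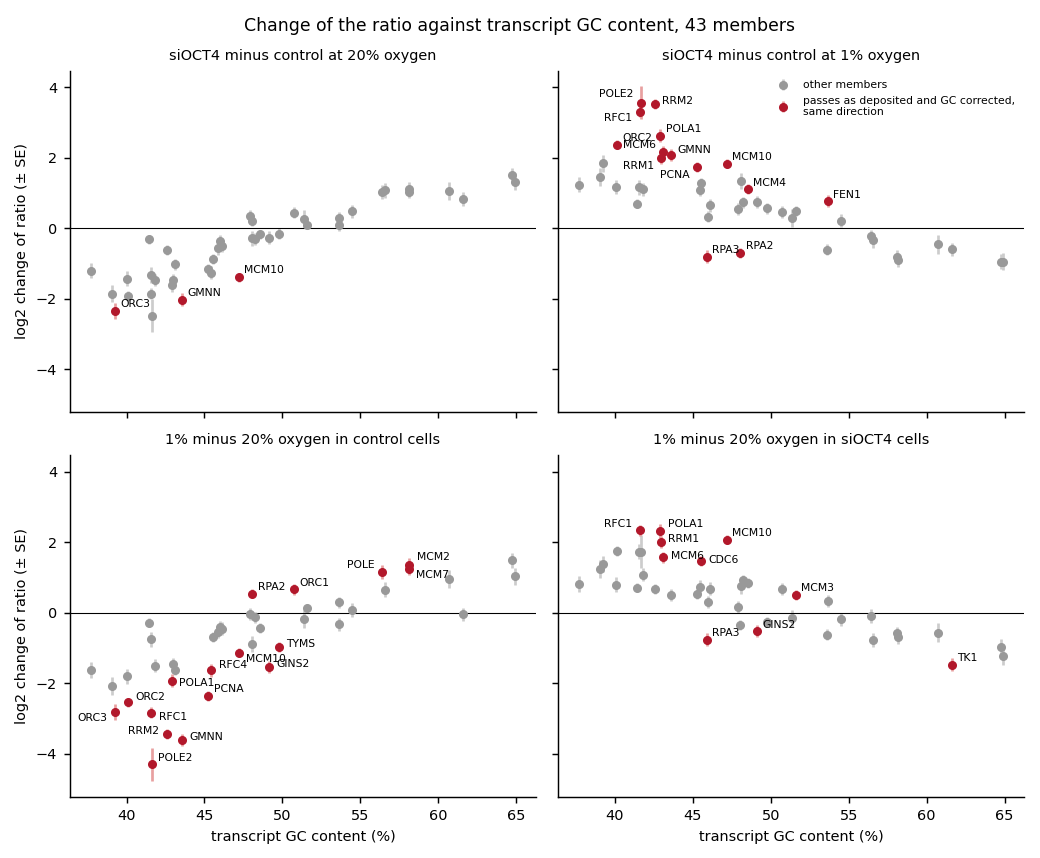
The log2 change of the ratio (vertical axis, ± SE) of each of the 43 members against the GC content of its transcript (horizontal axis, %) in the 4 comparisons. Changes as deposited run with GC content in every panel, and the red, named points passed in the same direction as deposited and GC corrected: 3 genes in siOCT4 against control at 20% oxygen, 14 at 1%, 17 for oxygen in control cells and 10 for oxygen in siOCT4 cells.

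In what follows, a change in control cells or in siOCT4 cells at 1% oxygen is that against 20% oxygen in the same cells, unless the other siRNA is named. Counts by role are to be read beside the shares of all genes higher and lower in the same order of comparisons. These were 19.2% and 34.1%, 41.1% and 19.9%, 20.5% and 39.6%, and 37.4% and 21.6% as deposited. GC corrected they were 7.24% and 7.46%, 21.7% and 22.7%, 23.1% and 23.1%, and 18.9% and 18.1%. The counts by role were not tested against these shares.

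Origin recognition came as a group of mostly AT-rich transcripts. ORC2, a core subunit, had ratios of 4.1 and 3.95 (siOCT4, 1%), 1.23 and 1.14 (siOCT4, 20%), 0.773 and 0.773 (control, 1%) and 4.83 and 4.16 (control, 20%). ORC3, its neighbour in the complex, had ratios of 3.98 and 3.7 (siOCT4, 1%), 1.52 and 1.41 (siOCT4, 20%), 0.904 and 1.26 (control, 1%) and 8.83 and 6.3 (control, 20%). Both were low in siOCT4 cells at 20% oxygen and control cells at 1%, and their values there did not overlap with those of siOCT4 cells at 1% and control cells at 20%. At 20% oxygen ORC3 fell 5.08-fold in siOCT4 against control cells, a change of -2.35 ± 0.24 (adjusted p = 0.000825) and -0.67 ± 0.14 after GC correction (adjusted p = 0.0313). The corrected call of ORC3 was lost in 7 of the 8 fits that left a culture out, all but the fit without control replicate 2 at 20%, with adjusted p between 0.0514 and 0.16. At 1% oxygen ORC2 rose 5.2-fold in siOCT4 against control cells, 2.38 ± 0.14 (adjusted p = 0.000303) and 0.73 ± 0.12 after GC correction (adjusted p = 0.0054). In control cells ORC3 fell 7.0-fold at 1% oxygen, -2.81 ± 0.24 (adjusted p = 0.000277) and -0.84 ± 0.14 after GC correction (adjusted p = 0.00497). In siOCT4 cells ORC2 was 3.39-fold higher at 1% oxygen, 1.76 ± 0.14 (adjusted p = 0.000683), but the change was 0.39 ± 0.12 after GC correction (adjusted p = 0.0507). ORC1, the GC-richest subunit, had ratios of 1.38 and 1.22 (siOCT4, 1%), 0.79 and 0.828 (siOCT4, 20%), 0.864 and 1.02 (control, 1%) and 0.651 and 0.539 (control, 20%), and rose in control cells at 1% oxygen both ways (0.66 as deposited, 0.68 corrected). Both calls of ORC1 were lost without control replicate 2 at 1% (adjusted p 0.0702 as deposited and 0.0841 corrected) or at 20% (0.0517 and 0.0586). ORC4 changed its sign with the correction in all 4 comparisons, for example 1.24 ± 0.22 (adjusted p = 0.00401) as deposited and -0.50 ± 0.13 after GC correction (adjusted p = 0.0234) in siOCT4 against control cells at 1% oxygen, a corrected call lost without any of the 4 cultures at 1% (adjusted p at least 0.0703). Over the 4 comparisons in the order above, the numbers of the 6 subunits higher and lower were 0 and 4, 5 and 0, 1 and 4, and 6 and 0 as deposited and 1 and 1, 1 and 1, 2 and 2, and 0 and 1 GC corrected.

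The 3 licensing genes include geminin, the inhibitor of CDT1. GMNN had ratios of 1.88 and 2.09 (siOCT4, 1%), 1.44 and 1.38 (siOCT4, 20%), 0.424 and 0.51 (control, 1%) and 6.35 and 5.12 (control, 20%). The control cultures at 1% oxygen were lowest, the control cultures at 20% highest, and no groups overlapped. In control cells GMNN fell 12.3-fold at 1% oxygen, -3.62 ± 0.17 (adjusted p = 0.000152), and 4.97-fold GC corrected, -2.31 ± 0.11 after GC correction (adjusted p = 0.000333). In siOCT4 cells against control cells it fell at 20% oxygen, -2.02 ± 0.17 (adjusted p = 0.000654) and -0.90 ± 0.11 after GC correction (adjusted p = 0.0162), and rose at 1%, 2.09 ± 0.17 (adjusted p = 0.000346) and 0.77 ± 0.11 after GC correction (adjusted p = 0.00328). The corrected fall at 20% oxygen was lost without siOCT4 replicate 1 or 2 at 20% (adjusted p 0.111 and 0.113). In siOCT4 cells at 1% against 20% oxygen the change of GMNN as deposited, 0.50, was smaller than those of CDC6 and CDT1, and it passed with the opposite sign corrected, -0.64. The first was lost without any of the 4 siOCT4 cultures (adjusted p 0.0979 to 0.192), and the second without siOCT4 replicate 2 at 20% (0.0562). CDC6, a loader of the helicase, had ratios of 2.57 and 2.58 (siOCT4, 1%), 0.982 and 0.878 (siOCT4, 20%), 1.01 and 1.12 (control, 1%) and 1.8 and 1.58 (control, 20%), and rose in siOCT4 cells at 1% against 20% oxygen by 1.47 ± 0.14 (adjusted p = 0.00078) and 0.54 ± 0.092 after GC correction (adjusted p = 0.0084); the corrected call was lost without siOCT4 replicate 2 at 20% (adjusted p 0.0663). CDT1, which geminin inhibits, had ratios of 0.409 and 0.385 (siOCT4, 1%), 0.871 and 0.998 (siOCT4, 20%), 0.836 and 0.695 (control, 1%) and 0.314 and 0.442 (control, 20%). Its direction was opposite to that of GMNN in each comparison as deposited (1.32, -0.94, 1.03 and -1.23 in the 4 comparisons in the order above), and GC corrected none of the 4 passed, with changes between -0.055 and 0.18. Leaving out siOCT4 replicate 2 at 20% ended the uncorrected call of CDT1 for siOCT4 against control at 20% (adjusted p 0.0514) and for oxygen in siOCT4 cells (0.0537). Other calls of it were lost without control replicate 1 at 1% for oxygen in control cells (0.0644), and without siOCT4 replicate 1 or 2 or control replicate 1 at 1% for siOCT4 against control at 1% (0.0608, 0.0769 and 0.0846). The licensing genes higher and lower numbered 1 and 2, 2 and 1, 1 and 2, and 2 and 1 as deposited and 0 and 1, 1 and 0, 0 and 1, and 1 and 1 GC corrected, in the same order of comparisons.

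The 6 subunits of the helicase ring split by composition. MCM6 had ratios of 2.68 and 2.71 (siOCT4, 1%), 0.963 and 0.852 (siOCT4, 20%), 0.562 and 0.632 (control, 1%) and 1.98 and 1.71 (control, 20%). MCM2 had ratios of 0.409 and 0.415 (siOCT4, 1%), 0.618 and 0.695 (siOCT4, 20%), 0.803 and 0.738 (control, 1%) and 0.295 and 0.31 (control, 20%). MCM7 had ratios of 0.507 and 0.504 (siOCT4, 1%), 0.772 and 0.739 (siOCT4, 20%), 0.929 and 0.832 (control, 1%) and 0.352 and 0.392 (control, 20%). MCM6 was above MCM2 and MCM7 in 6 cultures and below them in both control cultures at 1% oxygen. MCM6 rose 4.53-fold in siOCT4 against control cells at 1% oxygen, 2.18 ± 0.15 (adjusted p = 0.000303) and 0.80 ± 0.10 after GC correction (adjusted p = 0.00249). In siOCT4 cells it rose 2.98-fold at 1% oxygen, 1.57 ± 0.15 (adjusted p = 0.000755) and 0.39 ± 0.10 after GC correction (adjusted p = 0.0291), the corrected call being lost without any of the 4 siOCT4 cultures (adjusted p 0.0901 to 0.167). In control cells the fall of MCM6 at 1% oxygen, -1.63 ± 0.15 (adjusted p = 0.000335), became -0.24 ± 0.10 after GC correction (adjusted p = 0.101). MCM2 rose in control cells at 1% oxygen by 1.35 as deposited and 0.78 corrected, and MCM7 by 1.24 and 0.68, all passing. In siOCT4 cells at 20% oxygen MCM2 was 2.17-fold higher than in control cells, 1.12 ± 0.20 (adjusted p = 0.00547), but the change was 0.42 ± 0.15 after GC correction (adjusted p = 0.125), and the first call was lost without siOCT4 replicate 2 at 20% (adjusted p 0.0568). MCM3, MCM4 and MCM5 had ratios between 0.313 and 1.30 in all cultures; MCM4 rose both ways in siOCT4 against control cells at 1% oxygen (1.11 and 0.51), and MCM3 in siOCT4 cells at 1% against 20% oxygen (0.51 and 0.40). The corrected call of MCM4 was lost without siOCT4 replicate 1 or 2 at 1% (adjusted p 0.0699 and 0.072). Both calls of MCM3 were lost without any of the 4 siOCT4 cultures (0.0900 to 0.122 as deposited and 0.103 to 0.152 corrected). Ring subunits higher and lower in the 4 comparisons numbered 3 and 1, 3 and 2, 3 and 2, and 3 and 3 as deposited and 0 and 0, 2 and 0, 2 and 0, and 2 and 0 GC corrected.

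Among the genes that activate the helicase, MCM10 and GINS2 passed most often both ways. MCM10, an initiation factor that binds the loaded ring, had ratios of 4.0 and 3.94 (siOCT4, 1%), 0.903 and 0.982 (siOCT4, 20%), 1.06 and 1.17 (control, 1%) and 2.38 and 2.54 (control, 20%). The siOCT4 cultures at 1% oxygen were highest and those at 20% lowest, and no groups overlapped. MCM10 passed both ways in all 4 comparisons: it fell in siOCT4 against control cells at 20% oxygen (-1.38 ± 0.13 (adjusted p = 0.000724); -0.88 ± 0.13 after GC correction (adjusted p = 0.0191)), rose in siOCT4 against control cells at 1% (1.83 ± 0.13 (adjusted p = 0.000311); 1.02 ± 0.13 after GC correction (adjusted p = 0.00246)), fell in control cells at 1% oxygen (-1.13; corrected -0.54) and rose in siOCT4 cells at 1% against 20% oxygen (2.08 ± 0.13 (adjusted p = 0.000683); 1.36 ± 0.13 after GC correction (adjusted p = 0.00275)). The first corrected call was lost without siOCT4 replicate 1 or 2 at 20% (adjusted p 0.122 and 0.113). The corrected call in control cells was lost without control replicate 1 or 2 at 1% (0.0761 and 0.0606) or control replicate 2 at 20% (0.0514). The other 2 corrected calls and all 4 uncorrected ones passed with each culture left out. GINS2, a subunit of the helicase complex, had ratios of 0.878 and 0.95 (siOCT4, 1%), 1.35 and 1.28 (siOCT4, 20%), 0.477 and 0.618 (control, 1%) and 1.7 and 1.45 (control, 20%). It was lowest in control cells at 1% oxygen and next lowest in siOCT4 cells at 1%. GINS2 fell 2.9-fold in control cells at 1% oxygen, -1.54 ± 0.18 (adjusted p = 0.00072) and -1.29 ± 0.16 after GC correction (adjusted p = 0.00204), and also in siOCT4 cells (-0.52 as deposited and -0.98 corrected, both passing). There the uncorrected call was lost without any of the 4 siOCT4 cultures (adjusted p 0.104 to 0.166). Its partner GINS1 changed sign with the correction in all 4 comparisons, for instance -0.28 as deposited and 1.39 ± 0.12 after GC correction (adjusted p = 0.000858) in control cells. CDC45 had ratios between 0.713 and 1.13 and passed in none of the 4 comparisons either way. Of the 6 genes of this step, those higher and lower were 0 and 1, 5 and 0, 0 and 3, and 3 and 1 as deposited and 2 and 1, 1 and 1, 1 and 2, and 1 and 2 GC corrected.

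The clamp and its loader are described first by PCNA and RFC1. PCNA, the sliding clamp, had ratios of 1.77 and 1.91 (siOCT4, 1%), 1.24 and 1.31 (siOCT4, 20%), 0.532 and 0.571 (control, 1%) and 3.01 and 2.63 (control, 20%). RFC1, the large subunit of the clamp loader, had ratios of 6.3 and 5.25 (siOCT4, 1%), 1.15 and 1.13 (siOCT4, 20%), 0.529 and 0.636 (control, 1%) and 4.18 and 4.06 (control, 20%). For both genes the control cultures at 1% oxygen were lowest, and the groups did not overlap. RFC1 rose 9.92-fold in siOCT4 against control cells at 1% oxygen, 3.31 ± 0.16 (adjusted p = 0.000303) and 1.77 ± 0.13 after GC correction (adjusted p = 0.000962). In control cells it fell 7.1-fold at 1% oxygen, -2.83 ± 0.16 (adjusted p = 0.000155) and -1.18 ± 0.13 after GC correction (adjusted p = 0.00153). In siOCT4 cells it rose 5.06-fold at 1% oxygen, 2.34 ± 0.16 (adjusted p = 0.000683) and 1.04 ± 0.13 after GC correction (adjusted p = 0.00391). At 20% oxygen RFC1 was 3.62-fold lower in siOCT4 cells, -1.86 ± 0.16 (adjusted p = 0.000654), but -0.44 ± 0.13 after GC correction (adjusted p = 0.073). PCNA rose in siOCT4 against control cells at 1% oxygen (1.74; corrected 0.64) and fell in control cells at 1% oxygen (-2.35; corrected -1.38); in siOCT4 cells its change at 1% oxygen was 0.53 as deposited and -0.43 corrected, both past the threshold with opposite signs. Both were lost without any of the 4 siOCT4 cultures (adjusted p 0.0545 to 0.0941 and 0.0624 to 0.144). RFC3, the small subunit with the lowest GC content, changed more than PCNA in siOCT4 against control cells at 20% oxygen and in siOCT4 cells at 1% oxygen, and moved by -1.85, 1.46, -2.07 and 1.24 in the 4 comparisons as deposited and by values between -0.24 and -0.083 after the correction. Higher and lower members of the clamp and loader group were 0 and 4, 4 and 1, 0 and 4, and 4 and 1 as deposited and 0 and 0, 2 and 1, 1 and 3, and 1 and 2 GC corrected.

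The 3 subunits of RPA, the single strand binding complex, did not move together. RPA3, the smallest, had ratios of 0.776 and 0.772 (siOCT4, 1%), 1.27 and 1.37 (siOCT4, 20%), 1.53 and 1.19 (control, 1%) and 2.18 and 1.74 (control, 20%). RPA2 had ratios of 0.873 and 0.865 (siOCT4, 1%), 1.21 and 1.02 (siOCT4, 20%), 1.37 and 1.44 (control, 1%) and 0.994 and 0.928 (control, 20%). RPA1, the large subunit, had ratios of 1.76 and 1.66 (siOCT4, 1%), 0.902 and 0.895 (siOCT4, 20%), 0.956 and 1.09 (control, 1%) and 1.24 and 0.991 (control, 20%). RPA2 and RPA3 were lowest, and RPA1 highest, in siOCT4 cells at 1% oxygen. In siOCT4 against control cells at 1% oxygen RPA3 fell 1.74-fold, -0.80 ± 0.18 (adjusted p = 0.0111), and 3.51-fold corrected, -1.81 ± 0.19 after GC correction (adjusted p = 0.00161). The uncorrected call was lost without siOCT4 replicate 1 or 2 at 1% or control replicate 1 at 1% (adjusted p 0.0501, 0.0526 and 0.0547); the corrected one passed with each culture left out. RPA2 fell there too (-0.69; corrected -1.37). In control cells RPA2 rose at 1% oxygen, 0.55 ± 0.14 (adjusted p = 0.0161) and 0.98 ± 0.11 after GC correction (adjusted p = 0.00145), and the uncorrected call was lost without control replicate 2 at 1% or at 20% (adjusted p 0.0629 and 0.0505). RPA1 rose in siOCT4 cells at 1% oxygen, 0.93 ± 0.16 (adjusted p = 0.00391), but not corrected, 0.35 ± 0.13 after GC correction (adjusted p = 0.0906). At 20% oxygen RPA3 was lower in siOCT4 cells, -0.57 ± 0.18 (adjusted p = 0.044); corrected the sign turned, 0.16 ± 0.19 after GC correction (adjusted p = 0.612), and the call was lost in 5 of 8 fits with a culture left out: without siOCT4 replicate 1 or 2 at 1% (adjusted p 0.0754 and 0.0761), without siOCT4 replicate 1 or 2 at 20% (0.165 and 0.118) and without control replicate 1 at 20% (0.175). RPA subunits higher and lower were 0 and 1, 1 and 2, 1 and 1, and 1 and 1 as deposited and 1 and 0, 0 and 2, 1 and 0, and 0 and 2 GC corrected.

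The polymerase and primase genes held the largest change of any member in the 4 comparisons, that of POLE2, the B subunit of DNA polymerase epsilon. POLE2 had ratios of 2.66 and 6.7 (siOCT4, 1%), 1.31 and 1.23 (siOCT4, 20%), 0.335 and 0.38 (control, 1%) and 9.17 and 5.38 (control, 20%). The control cultures at 1% oxygen were lowest; the siOCT4 cultures at 1% differed from each other by more than any other pair of this gene and overlapped with the control cultures at 20%. In control cells POLE2 fell 19.7-fold at 1% oxygen, -4.3 ± 0.47 (adjusted p = 0.000666), and 6.32-fold corrected, -2.66 ± 0.43 after GC correction (adjusted p = 0.00545). In siOCT4 against control cells at 1% oxygen it rose 11.8-fold, 3.57 ± 0.47 (adjusted p = 0.00145) and 2.03 ± 0.43 after GC correction (adjusted p = 0.0139), and the corrected call was lost without control replicate 1 or 2 at 1% (adjusted p 0.061 and 0.0589). At 20% oxygen it was lower in siOCT4 cells, -2.47 ± 0.47 (adjusted p = 0.00738), but -1.07 ± 0.43 after GC correction (adjusted p = 0.153). POLE, the catalytic subunit of the same enzyme, had ratios of 0.583 and 0.57 (siOCT4, 1%), 0.642 and 0.585 (siOCT4, 20%), 0.644 and 0.707 (control, 1%) and 0.298 and 0.303 (control, 20%), and rose in control cells at 1% oxygen by 1.17 as deposited and 0.71 corrected, both passing, while POLE2 fell. The corrected call of POLE was lost without control replicate 2 at 1% (adjusted p 0.0701) or at 20% (0.0616). POLA1, the catalytic subunit of polymerase alpha, had ratios of 3.29 and 4.09 (siOCT4, 1%), 0.753 and 0.71 (siOCT4, 20%), 0.551 and 0.633 (control, 1%) and 2.53 and 1.99 (control, 20%). It rose 5.01-fold in siOCT4 cells at 1% oxygen, 2.33 ± 0.19 (adjusted p = 0.000683) and 1.13 ± 0.14 after GC correction (adjusted p = 0.00373), rose in siOCT4 against control cells at 1% oxygen (2.63; corrected 1.23) and fell in control cells at 1% oxygen (-1.93; corrected -0.50). This last corrected call was lost without either siOCT4 culture at 20% (adjusted p 0.0579 and 0.0573), either control culture at 1% (0.0898 and 0.0905) or control replicate 1 at 20% (0.108). PRIM1 and PRIM2, the primase subunits, rose by 1.17 and 1.16 as deposited in siOCT4 against control cells at 1% oxygen. Corrected, PRIM1 was at -0.48 (adjusted p = 0.0366), and PRIM2 at -0.38 (adjusted p = 0.0694). The corrected call of PRIM1 was lost without siOCT4 replicate 1 at 1%, either siOCT4 culture at 20% or either control culture at 1% (adjusted p 0.0711 to 0.133). POLD1, the catalytic subunit of polymerase delta and the lowest member by geometric mean in 2 groups, passed in all 4 comparisons as deposited (1.5, -0.94, 1.49 and -0.96) and in none of them corrected. The second call was lost without siOCT4 replicate 1 or 2 or control replicate 1 at 1% (adjusted p 0.0501, 0.0611 and 0.0593). The fourth was lost without any of the 4 siOCT4 cultures (0.0513 to 0.0823). Of the 7 genes, those higher and lower were 2 and 4, 4 and 1, 2 and 4, and 4 and 1 as deposited and 0 and 0, 2 and 1, 2 and 2, and 1 and 1 GC corrected.

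FEN1, the flap nuclease, had ratios of 1.26 and 1.05 (siOCT4, 1%), 0.944 and 0.872 (siOCT4, 20%), 0.74 and 0.621 (control, 1%) and 0.795 and 0.911 (control, 20%). LIG1, the ligase, had ratios of 0.474 and 0.449 (siOCT4, 1%), 0.657 and 0.706 (siOCT4, 20%), 0.721 and 0.555 (control, 1%) and 0.274 and 0.387 (control, 20%). FEN1 rose in siOCT4 against control cells at 1% oxygen, 0.77 ± 0.17 (adjusted p = 0.010) and 0.86 ± 0.12 after GC correction (adjusted p = 0.0035); the uncorrected call was lost without siOCT4 replicate 1 at 1% (adjusted p 0.0689). LIG1 was higher in siOCT4 cells at 20% oxygen, 1.06 ± 0.26 (adjusted p = 0.0179), and in control cells at 1% oxygen, 0.96 ± 0.26 (adjusted p = 0.0218), and neither passed corrected, 0.20 ± 0.10 after GC correction (adjusted p = 0.227) and 0.24 ± 0.10 after GC correction (adjusted p = 0.0985). The first of these was lost without siOCT4 replicate 1 or 2 at 20% (adjusted p 0.0782 and 0.102), and the second without siOCT4 replicate 1 or 2 at 20% (0.0506 and 0.0507), control replicate 1 at 1% (0.107) or control replicate 1 at 20% (0.0591). In siOCT4 cells the change of LIG1 at 1% oxygen was -0.56 ± 0.26 (adjusted p = 0.113), and 0.30 ± 0.10 after GC correction (adjusted p = 0.0645).

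Ribonucleotide reductase, which makes deoxyribonucleotides, had subunits with unlike ratios. RRM2, the small subunit, which is regulated through the cell cycle, had ratios of 1.68 and 1.78 (siOCT4, 1%), 1.08 and 1.06 (siOCT4, 20%), 0.143 and 0.158 (control, 1%) and 1.75 and 1.53 (control, 20%). RRM1, the large subunit, had ratios of 2.88 and 3.01 (siOCT4, 1%), 0.724 and 0.74 (siOCT4, 20%), 0.691 and 0.79 (control, 1%) and 2.28 and 1.77 (control, 20%). The control cultures at 1% oxygen set RRM2 apart: its ratio there was below every other value of either gene. In control cells RRM2 fell 10.9-fold at 1% oxygen, -3.44 ± 0.14 (adjusted p = 0.000152), and 3.88-fold corrected, -1.96 ± 0.16 after GC correction (adjusted p = 0.000849). In siOCT4 against control cells at 1% oxygen RRM2 rose 11.5-fold, 3.52 ± 0.14 (adjusted p = 0.000303), and 4.23-fold corrected, 2.08 ± 0.16 after GC correction (adjusted p = 0.00108). All 4 of these calls passed with each culture left out. RRM1 rose in siOCT4 cells at 1% oxygen 4.02-fold, 2.01 ± 0.17 (adjusted p = 0.000683) and 0.81 ± 0.11 after GC correction (adjusted p = 0.00488); at 20% oxygen it was lower in siOCT4 than in control cells, -1.45 ± 0.17 (adjusted p = 0.00114), but -0.24 ± 0.11 after GC correction (adjusted p = 0.195). The change of RRM1 in control cells at 1% oxygen was -1.44 as deposited and -0.026 corrected. TYMS, which makes thymidylate, had ratios of 0.983 and 1.22 (siOCT4, 1%), 1.33 and 1.3 (siOCT4, 20%), 0.741 and 0.741 (control, 1%) and 1.4 and 1.51 (control, 20%), and fell in control cells at 1% oxygen both ways (-0.97; corrected -0.82). TK1, the salvage enzyme, had ratios of 0.393 and 0.373 (siOCT4, 1%), 1.05 and 1.06 (siOCT4, 20%), 0.624 and 0.534 (control, 1%) and 0.539 and 0.653 (control, 20%); it was highest in siOCT4 cells at 20% oxygen, and at 1% oxygen fell in siOCT4 cells both ways (-1.47; corrected -0.53). The corrected call was lost without any of the 4 siOCT4 cultures (adjusted p 0.0839 to 0.105). The numbers of the 4 nucleotide genes higher and lower were 1 and 2, 3 and 1, 0 and 3, and 2 and 1 as deposited and 1 and 0, 2 and 0, 0 and 3, and 1 and 3 GC corrected.

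**Figure D3:**
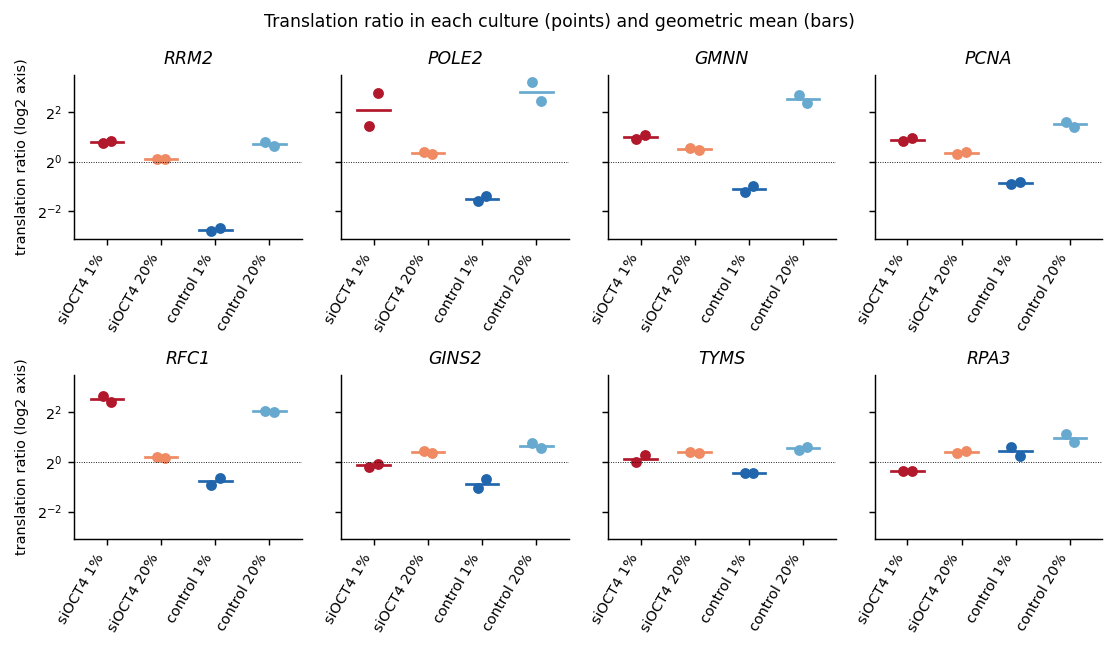
Translation ratio (log2 axis) of 8 members in each culture (points) with the geometric mean of the group (bars), siOCT4 cells in red and orange and control cells in blue. RRM2, POLE2 and GMNN are lowest in control cells at 1% oxygen (0.143 to 0.51), and RPA3 is lowest in siOCT4 cells at 1% oxygen (0.776 and 0.772).

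**Figure D4:**
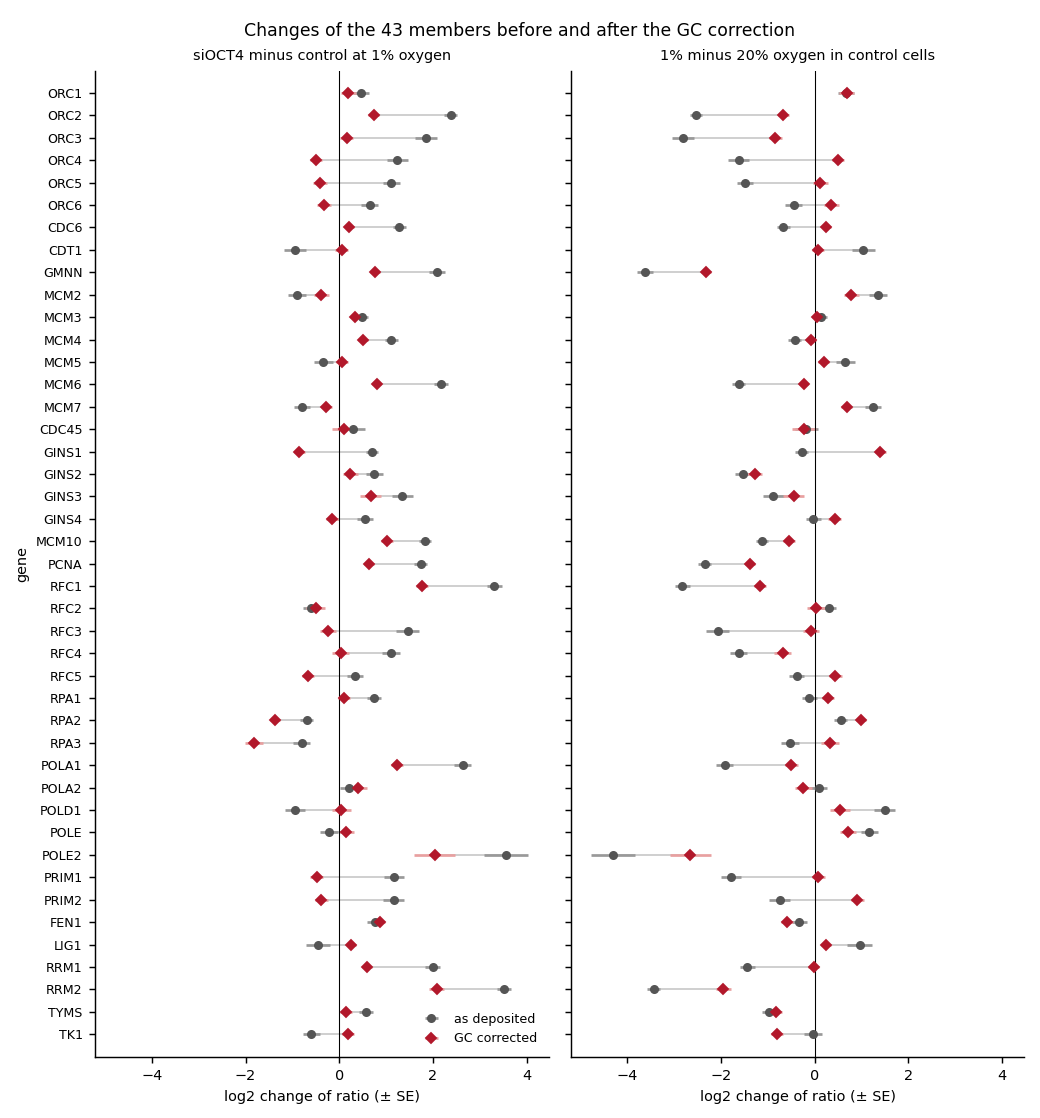
The log2 change (± SE) of each member as deposited (grey circles) and GC corrected (red diamonds) for siOCT4 minus control at 1% oxygen (left) and 1% minus 20% oxygen in control cells (right). Most red points lie nearer to 0 than their grey partners; RRM2 stays at 2.08 on the left and -1.96 on the right, and RPA3 lies farther from 0 corrected (-1.81) than as deposited (-0.80) on the left.

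The difference between the oxygen responses of siOCT4 and control cells (the interaction: 1% minus 20% in siOCT4 cells, minus the same in control cells) was tested for every member. It was positive and past the threshold for 27 members and negative for 10, and 68.7% of all genes passed (42.5% positive, 26.2% negative); the members' median was 1.05 beside 0.49 for all genes. GC corrected, 12 were positive and 9 negative, 43.7% of all genes passed (22.3% positive, 21.4% negative), and the median was 0.070. POLE2 had the largest interaction, 6.04 ± 0.66 (adjusted p = 0.000504) and 3.1 ± 0.61 after GC correction (adjusted p = 0.0111). RFC1 followed with 5.17 ± 0.22 (adjusted p = 8.04e-05) and 2.21 ± 0.18 after GC correction (adjusted p = 0.00112). ORC2, ORC3, GMNN, MCM6, MCM10, PCNA, POLA1, FEN1, RRM1 and RRM2 were also positive both ways, and MCM2, MCM7 and RPA2 negative both ways. Of these 15, 10 passed both ways with each culture left out: ORC2, GMNN, MCM10, PCNA, RFC1, RPA2, POLA1, POLE2, RRM1 and RRM2. The corrected call of MCM2 was lost in 7 of the 8 fits, all but that without control replicate 1 at 20% (adjusted p up to 0.107). That of MCM7 was lost in 6, all but those without a control culture at 20% (up to 0.0973). The corrected call of ORC3 was lost without siOCT4 replicate 1 at 1%, either siOCT4 culture at 20% or control replicate 1 at 1% (0.0542 to 0.0658). That of MCM6 was lost without either siOCT4 culture at 1% or siOCT4 replicate 2 at 20% (0.0582 to 0.0711). The uncorrected call of FEN1 was lost in 6 fits, all but those without control replicate 1 at 1% or at 20% (0.0609 to 0.160). The 9 corrected negative calls were 5 without siOCT4 replicate 1 at 1% or either siOCT4 culture at 20%, and 6 without either control culture at 1%. RPA3, with -0.24 as deposited and not past the threshold, had -1.97 ± 0.27 after GC correction (adjusted p = 0.00326).

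The remaining comparisons set groups that differ in both factors side by side. Between siOCT4 cells at 20% oxygen and control cells at 1%, 8 members were higher and 0 lower as deposited, with 11.7% of all genes called (8.78% higher, 2.91% lower). Member and all-gene medians were 0.29 and 0.12, or 0.21 and 0.12 without control replicate 1 at 1%. At an unadjusted limma p under 0.05, 2 members were lower, RPA2 and PRIM2. This threshold is looser than the one used elsewhere and was applied to the lower direction only. The share of all genes that it calls is not given, so these 2 are not counted as calls. GC corrected, 8 were higher and 2 lower, with 22.7% of all genes called (10.8% higher, 11.9% lower), and quantile normalization gave 12 and 7. GMNN, GINS2, PCNA, RFC1, RRM2, TK1 and TYMS were higher both ways, and none of the 7 passed both ways with each culture left out. RRM2 was 7.13-fold higher, 2.83 ± 0.14 (adjusted p = 0.00584) and 2.62 ± 0.16 after GC correction (adjusted p = 0.00335). GMNN was 3.03-fold higher, 1.6 ± 0.17 (adjusted p = 0.0108) and 1.41 ± 0.11 after GC correction (adjusted p = 0.00381). TYMS, TK1 and RRM2 made 3 of the 4 nucleotide synthesis genes. The count of 8 was 0 without either siOCT4 culture at 20% oxygen and 1 and 5 without control replicate 1 and 2 at 1%, and the corrected count of 10 was 3, 3, 4 and 4 without the same cultures.

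Between siOCT4 cells at 1% oxygen and control cells at 20%, 9 members were higher and 5 lower, with 26.5% of all genes called (13.5% higher, 13.1% lower) and medians of 0.30 and 0.012, or 0.18 and 0.025 without siOCT4 replicate 2 at 1%. Setting each culture's median to 0 gave 4 higher and 8 lower. GC corrected, 14 were higher and 9 lower, with 37.2% of all genes called (18.1% higher, 19.0% lower). ORC1, CDC6, MCM3, MCM4, MCM6, MCM10, POLA1 and POLE were higher both ways, and ORC3, GMNN, GINS2, PCNA and RPA3 lower both ways. Of these 13, only GMNN passed both ways with each culture left out. RPA3 lost its uncorrected call without siOCT4 replicate 1 at 1% (adjusted p 0.0503). GMNN was 2.87-fold lower, -1.52 ± 0.17 (adjusted p = 0.00517) and -1.55 ± 0.11 after GC correction (adjusted p = 0.00199). RPA3 was 2.52-fold lower, -1.33 ± 0.18 (adjusted p = 0.00706) and -1.49 ± 0.19 after GC correction (adjusted p = 0.00431). The count of 14 became 1 and 3 when replicate 1 and 2 of siOCT4 at 1% oxygen were left out, and 5 without either siOCT4 culture at 20%, and the corrected count of 23 was 7 and 10 without siOCT4 replicate 1 and 2 at 1%.

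The spread among subunits of a complex differed between groups, and not in the same way for every complex. The highest subunit ratio of the MCM ring, as a multiple of the lowest, was 6.56 and 6.53 (siOCT4, 1%), 1.56 and 1.23 (siOCT4, 20%), 1.65 and 1.64 (control, 1%), and 6.71 and 5.52 (control, 20%). GC corrected, the same spreads were 1.68 and 1.62, 1.27 and 1.11, 1.64 and 1.77, and 1.41 and 1.49. The GINS complex spread 2.24 and 2.55 times (siOCT4, 1%), 1.38 and 1.33 times (siOCT4, 20%), 2.38 and 1.93 times (control, 1%), and 2.48 and 1.76 times (control, 20%). Corrected, its spreads were 1.65 and 2.56, 1.40 and 1.36, 2.47 and 1.74, and 3.42 and 2.79 times, so they widened in control cells at 20% oxygen. The origin recognition complex spread 13.6 and 11.7 times in control cells at 20% oxygen, 2.94 and 3.18 times corrected, with ORC3 first and ORC1 last. The ratios of RRM1 and RRM2 differed 1.71 and 1.69 times (siOCT4, 1%), 1.49 and 1.44 times (siOCT4, 20%), 4.83 and 4.99 times (control, 1%), and 1.3 and 1.15 times (control, 20%). GC corrected, the gap of the reductase pair was 4.82 and 5.02 times in control cells at 1% oxygen. The transcripts of RRM1 and RRM2 have nearly the same GC content (42.98% and 42.58%). A correction by GC content could therefore hardly change the gap of this pair in any culture, and it is no test of the gap.

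**Figure D5:**
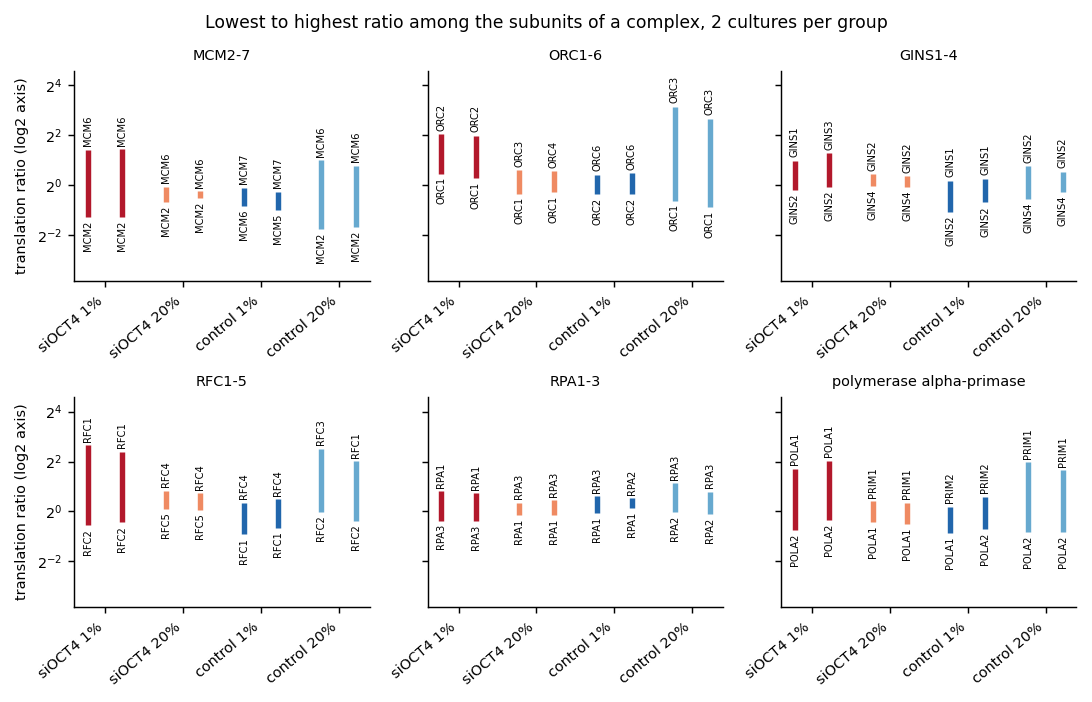
Each bar spans the lowest to the highest translation ratio (log2 axis) among the subunits of a complex in 1 culture, with the subunit named at each end. The bars are long in siOCT4 cells at 1% oxygen and control cells at 20% for the MCM ring (6.53 to 6.56 and 5.52 to 6.71 times) and short in the other groups (1.23 to 1.65 times).

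Other genes of the pathway were taken from lists that do not overlap with the members. Of 40 other replication factors, 9 rose and 22 fell in siOCT4 against control cells at 20% oxygen, 25 rose and 7 fell at 1%, 8 rose and 21 fell at 1% against 20% oxygen in control cells, and 23 rose and 7 fell in siOCT4 cells; the median changes were -0.79, 1.17, -0.86 and 0.81. GC corrected, the counts were 3 and 9, 19 and 6, 6 and 10, and 14 and 9, with medians of -0.076, 0.41, -0.13 and 0.34. The shares of all genes that rose and fell were 19.2% and 34.1%, 41.1% and 19.9%, 20.5% and 39.6%, and 37.4% and 21.6%. Corrected, these shares were 7.24% and 7.46%, 21.7% and 22.7%, 23.1% and 23.1%, and 18.9% and 18.1%. The counts of this list and of the next 2 were not tested against them. DNA2, a nuclease and helicase of lagging strand processing, had ratios of 3.36 and 3.43 (siOCT4, 1%), 0.967 and 0.829 (siOCT4, 20%), 0.244 and 0.275 (control, 1%) and 5.14 and 3.83 (control, 20%). It fell 17.1-fold in control cells at 1% oxygen, -4.1 ± 0.19 (adjusted p = 0.000152) and -1.97 ± 0.14 after GC correction (adjusted p = 0.000611), and rose in siOCT4 against control cells at 1%, 3.71 ± 0.19 (adjusted p = 0.000303) and 1.97 ± 0.14 after GC correction (adjusted p = 0.000962). DBF4, the activating subunit of the kinase CDC7, fell in control cells at 1% oxygen, -3.66 ± 0.22 (adjusted p = 0.000157) and -1.79 ± 0.16 after GC correction (adjusted p = 0.000934), and CDC7 rose in siOCT4 against control cells at 1%, 3.05 ± 0.21 (adjusted p = 0.000308) and 1.35 ± 0.15 after GC correction (adjusted p = 0.00179). WDHD1 and TOP2A, a fork protein and a topoisomerase, rose in siOCT4 cells at 1% oxygen, 2.44 ± 0.25 (adjusted p = 0.000873) and 2.42 ± 0.20 (adjusted p = 0.00069), and corrected by 1.03 and 1.02. MTBP, an initiation factor, fell in siOCT4 against control cells at 20% oxygen, -2.47 ± 0.19 (adjusted p = 0.000653) and -0.63 ± 0.14 after GC correction (adjusted p = 0.0383).

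Of 34 other genes of nucleotide metabolism, not all of them enzymes of synthesis, in the same 4 comparisons 7 rose and 12 fell, 14 rose and 9 fell, 8 rose and 17 fell, and 14 rose and 12 fell. Their medians were -0.0047, 0.011, -0.37 and 0.089. Beside these, 19.2% and 34.1%, 41.1% and 19.9%, 20.5% and 39.6%, and 37.4% and 21.6% of all genes rose and fell. Corrected, the counts were 4 and 2, 4 and 13, 10 and 8, and 3 and 11, with medians of 0.17, -0.23, 0.18 and -0.21. All genes then gave 7.24% and 7.46%, 21.7% and 22.7%, 23.1% and 23.1%, and 18.9% and 18.1%. PPAT, the first enzyme of purine synthesis, had ratios of 5.57 and 5.89 (siOCT4, 1%), 1.33 and 1.26 (siOCT4, 20%), 0.86 and 1.1 (control, 1%) and 8.05 and 5.45 (control, 20%). It passed both ways in all 4 comparisons, with changes of -2.35, 2.56, -2.76 and 2.15, and corrected -0.58, 0.82, -0.66 and 0.73. CMPK1, a nucleotide kinase, fell in control cells at 1% oxygen, -2.72 ± 0.18 (adjusted p = 0.000168) and -0.61 ± 0.11 after GC correction (adjusted p = 0.00664). TYMP, a thymidine phosphorylase, had ratios of 0.123 and 0.123 (siOCT4, 1%), 1.46 and 0.912 (siOCT4, 20%), 0.522 and 2.28 (control, 1%) and 0.102 and 0.402 (control, 20%), which differ widely between cultures of both 20% groups and of control cells at 1%.

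Among 25 regulators of the G1 to S transition, 4 rose and 14 fell in siOCT4 against control cells at 20% oxygen, 16 rose and 4 fell at 1%, 3 rose and 16 fell at 1% oxygen in control cells, and 13 rose and 4 fell in siOCT4 cells. The shares of all genes were 19.2% and 34.1%, 41.1% and 19.9%, 20.5% and 39.6%, and 37.4% and 21.6%. Corrected, the counts were 1 and 1, 8 and 7, 6 and 12, and 4 and 5. The corrected shares of all genes were 7.24% and 7.46%, 21.7% and 22.7%, 23.1% and 23.1%, and 18.9% and 18.1%. E2F8, a repressor among the E2F factors, had ratios of 4.86 and 3.35 (siOCT4, 1%), 1.04 and 1.33 (siOCT4, 20%), 0.318 and 0.357 (control, 1%) and 2.84 and 3.04 (control, 20%). It fell 8.71-fold in control cells at 1% oxygen, -3.12 ± 0.22 (adjusted p = 0.000194) and -2.27 ± 0.22 after GC correction (adjusted p = 0.00116), and rose 12.0-fold in siOCT4 against control cells at 1%, 3.58 ± 0.22 (adjusted p = 0.000303) and 2.57 ± 0.22 after GC correction (adjusted p = 0.00118). CCNE2, a cyclin of S phase entry, fell in control cells at 1% oxygen, -4.2 ± 0.56 (adjusted p = 0.00143) and -2.02 ± 0.53 after GC correction (adjusted p = 0.0261). CDK6, a G1 kinase, rose in siOCT4 cells at 1% oxygen, 2.14 ± 0.22 (adjusted p = 0.000881) and 0.74 ± 0.17 after GC correction (adjusted p = 0.0215). RBL1 in siOCT4 cells at 1% oxygen, 1.84 ± 0.33 (adjusted p = 0.00458), and RB1 in siOCT4 against control cells at 20%, -2.4 ± 0.18 (adjusted p = 0.000653), passed as deposited and not corrected, 0.45 and -0.59.

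Some of these ratios rest on reads that could belong to other genes. In GENCODE release 29, 58.2% of the exon bases of TYMS overlap ENOSF1 on the opposite strand, 30.7% of those of MCM2 an antisense gene, 53.7% of those of POLA2 and 27.9% of those of RRM2 another gene on the same strand, and whether the authors' counting used strand is not given in the sources used here. PCNA, RFC3, RFC5, RPA2, FEN1, RRM2 and TYMS have between 1 and 3 named pseudogenes each. In 1 culture each, CDC6, RFC4, RPA3, POLE2, PRIM1 and FEN1 had a ratio that at least 3 genes shared. Of all 15864 genes tested, only 8087 had no such ratio in any culture. Small read numbers can give shared ratios, but the read numbers are not known and this was not tested. These members are taken as less certain than the others.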

How the data were processed

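The values analysed were translation ratios of 8 cultures of H9 cells, from 16 libraries (RNA and RNC). The authors deposited 1 table in the unit ratio, with 1 column per culture and 28252 genes; per the file headers each column carries the label that an RNA and an RNC library share. The submitters' processing notes name edgeR and the build hg19; the sources used here give no mapper, counting, filters or library totals. No counts were used, so edgeR's test as such was not applicable and the depth is not known.

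The log2 ratio of the 15864 genes with a ratio in all 8 cultures was modelled in R 4.3.3 by limma 3.58.1 (trend and robust settings, statmod 1.5.0), with 4 group means and 4 residual degrees of freedom. Two-sided p-values were adjusted by Benjamini-Hochberg over every tested gene, and the threshold was 0.05. "Called", "rose" and "fell" mean past this threshold.

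The GC correction took the residual of each culture's log2 ratios from a natural spline (6 degrees of freedom) on transcript GC content, for 15259 genes (96.2%) matched by symbol to GENCODE release 29, using the principal isoform and, among several, the longest. This annotation is on another build and gave no coordinates for the ratios. Alternatives were GC content with length, quantile normalization, a median of 0 in each culture, a replicate block, pseudocounts, only the groups compared, and each culture left out. A ratio shared by at least 3 genes of a culture within a relative tolerance of 2e-06 was called recurrent.

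The 43 members and the lists of other genes were chosen with earlier results of these data known. In each one-factor comparison, the member with the largest change in each of 9 roles is described in full, and from each other list the 2 genes with the largest change; further members were named after their values were seen. On simulated data for siOCT4 against control at 20% oxygen (15864 genes), 14 of 100 genes given a log2 change of 1 and 56 of 100 given a change of 2 were called. No other genes were changed in the simulation, whereas 53.3% of all genes passed in this comparison of the data. The adjustment of p-values was therefore stricter in the simulation, and its counts are not detection rates of the reported tests. Promoters came from RefSeq. Figures used matplotlib 3.10.9, and tables pandas 2.3.3 with numpy 2.4.6 in Python 3.11.15; rank correlations came from scipy 1.17.1.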

Additional observations from a re-analysis of the deposited data

Results flagged for a closer look

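For 37 of the 43 members, the response to 1% against 20% oxygen differed between siOCT4 and control cells by limma's test of the interaction, with an adjusted p below the threshold over all genes; 68.7% of all genes did so. The values below are log2 differences, the response of siOCT4 cells minus that of control cells, as deposited. Among the origin recognition genes, the interaction was 4.3 for ORC2, 4.19 for ORC3, 2.44 for ORC4, 2.57 for ORC5 and 1.14 for ORC6. For the licensing genes it was 2.14 for CDC6, -2.27 for CDT1 and 4.11 for GMNN. In the helicase ring it was -2.02 for MCM2, 1.28 for MCM4, -1.42 for MCM5, 3.2 for MCM6 and -1.82 for MCM7. Of the genes that activate the helicase, the interaction came to 1.0 for GINS1, 1.01 for GINS2, 1.63 for GINS3 and 3.21 for MCM10. The clamp and its loader had 2.88 for PCNA, 5.17 for RFC1, -0.91 for RFC2, 3.31 for RFC3, 2.36 for RFC4 and 0.70 for RFC5. RPA subunits had 1.05 for RPA1 and -0.90 for RPA2. The polymerases and primase had 4.25 for POLA1, -2.45 for POLD1, -1.26 for POLE, 6.04 for POLE2, 2.59 for PRIM1 and 2.49 for PRIM2. On the lagging strand it was 0.67 for FEN1 and -1.52 for LIG1. Nucleotide synthesis genes had 3.45 for RRM1, 4.13 for RRM2, -1.43 for TK1 and 0.71 for TYMS. GC corrected, 15 of these passed with the same sign (ORC2, ORC3, GMNN, MCM2, MCM6, MCM7, MCM10, PCNA, RFC1, RPA2, POLA1, POLE2, FEN1, RRM1 and RRM2), 4 passed with the opposite sign (ORC4 -1.09, GINS1 -1.99, RFC5 -1.01 and PRIM1 -0.65) and 18 did not pass. GINS4 and RPA3 passed only corrected, at -0.89 and -1.97. The groups hold 2 cultures each, too few to look for single cultures that lie apart.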

How the results depend on the processing

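The 7 comparisons are taken in a fixed order: siOCT4 against control cells, first at 20% and then at 1% oxygen, low against high oxygen within control cells and within siOCT4 cells, the interaction, siOCT4 cells at 1% against control cells at 20%, and siOCT4 cells at 20% against control cells at 1%. As deposited they called 27, 36, 32, 34, 37, 14 and 8 members, with median changes of -0.31, 0.75, -0.53, 0.68, 1.05, 0.30 and 0.29. GC corrected, they called 8, 18, 23, 20, 21, 23 and 10, with medians of 0.076, 0.15, 0.032, -0.013, 0.070, 0.16 and 0.10. Corrected for GC content and transcript length, they called 8, 20, 24, 13, 23, 12 and 10, with medians of 0.081, 0.11, 0.055, 0.081, 0.12, 0.17 and 0.11. After quantile normalization they called 9, 19, 22, 20, 25, 0 and 19, with medians of -0.23, 0.47, -0.33, 0.27, 0.72, 0.14 and -0.042. With the replicate block and the GC correction together they called 3, 17, 21, 16, 18, 16 and 8, with medians of 0.076, 0.15, 0.032, -0.013, 0.070, 0.16 and 0.10. Setting each culture's median to 0 gave 28, 31, 29, 27, 31, 12 and 6 calls and medians of -0.23, 0.37, -0.33, 0.42, 0.59, 0.11 and 0.17; it moved the median of all genes, which was -0.086, 0.42, -0.31, 0.27, 0.49, 0.012 and 0.12 as deposited, to -0.011, 0.043, -0.12, 0.0081, 0.032, -0.17 and -0.0043. The labels do not say whether the replicate numbers pair the cultures. Correlations of same-numbered deviations between groups were -0.23 for the control groups and between -0.04 and 0.02 for the others. GC corrected, the value for the control groups was -0.08. Such correlations cannot show whether cultures were paired. The replicate block called 26, 34, 29, 28, 35, 5 and 4 members. With the numbers of the control groups crossed, a setting chosen after seeing the data, 28 members were called for oxygen in control cells. Fitting only the groups compared called 3 for siOCT4 at 1% against control at 20% oxygen and 4 for siOCT4 at 20% against control at 1% oxygen. A pseudocount of 0.1 moved medians to 0.69 for siOCT4 against control at 1% oxygen, 0.62 for 1% against 20% oxygen in siOCT4 cells, 0.97 for the interaction and 0.25 for siOCT4 at 1% against control at 20% oxygen. Leaving out genes with a recurrent ratio moved medians to 0.70 for siOCT4 against control at 1% oxygen, -0.43 for 1% against 20% oxygen in control cells and 0.53 for 1% against 20% oxygen in siOCT4 cells. With each culture left out in turn the counts ranged over 20 to 29, 25 to 37, 26 to 32, 15 to 34, 33 to 36, 1 to 12 and 0 to 9 as deposited and 0 to 5, 15 to 21, 15 to 24, 7 to 24, 15 to 23, 7 to 20 and 3 to 11 GC corrected, and the medians over -0.46 to -0.20, 0.66 to 0.84, -0.69 to -0.43, 0.48 to 0.68, 0.92 to 1.21, 0.18 to 0.33 and 0.21 to 0.30 and -0.053 to 0.19, 0.062 to 0.22, -0.13 to 0.12, -0.10 to 0.011, 0.054 to 0.23, 0.10 to 0.25 and 0.052 to 0.11. These fits have fewer cultures, and the spread of a lone culture was taken from the other groups. Fewer cultures also change the adjustment of p-values for every gene. The calls over all genes in these fits are not given here. A lower count of members therefore cannot be told apart from a loss of calls over the whole table. Of 36 changes of named members in the 4 one-factor comparisons, 25 kept their direction and side of the threshold GC corrected, 9 no longer passed and 2 turned their sign: RPA3 in siOCT4 against control cells at 20% oxygen was 0.16 GC corrected, 0.15 with length, 0.27 quantile normalized and 0.16 with the block and GC, and LIG1 in siOCT4 cells at 1% against 20% oxygen 0.30, 0.13, 0.39 and 0.30. All 36 kept both with pseudocounts of 0.01 and 0.1, without trend and robust settings, and with a ratio required only in the groups compared. The causes of these shifts were not tested. Shares of all genes called are given here only as deposited and GC corrected. Under the other settings, a change in the count of members cannot be told apart from a change over all genes. The table gives no counts, so the depth behind a ratio, a minimum level and an interval for counting error are not known.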
